A study of Mus musculus with 8 samples.

Results

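Rab small GTPases were examined as a family in the cortex of mouse embryos that lacked Ptbp2 and of wild type embryos. Members were taken by name: every gene whose symbol consists of Rab, a number and at most 1 letter, counted only through probe sets (groups of probes read as 1 signal) that the platform annotation gives to exactly 1 gene. This gave 59 Rab genes with 746 probe sets, of 21451 named genes and 625534 probe sets in the table. Of the 59, 4 (Rab7b, Rab29, Rab42 and Rab44) fit the naming rule only by their current symbol, not by the older one in the annotation. A gene was tested if 4 or more of its probe sets had a mean log2 signal at or above the table median of 6.84, which held for 49 Rab genes among 12960 genes. The Ptbp2 KO group held 4 cortex samples and the wild type group 4 cortex samples, with 1 Affymetrix exon array per sample. All were at embryonic day 18.5, on a mixed CD1 and C57BL/6 background that both groups shared. The labels call the first group Ptbp2 KO without naming the allele, its promoter or any Cre driver.

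Rab proteins are molecular switches that mark the membranes of a cell. Bound to GTP, a Rab recruits effectors (tethers, motors and coat factors) to 1 kind of vesicle or organelle, and hydrolysis of the GTP returns it to the cytosol. Exchange factors switch Rabs on, GTPase activators switch them off, and prenylation by geranylgeranyl transferase lets them insert into membranes. In neurons, Rab3 proteins sit on synaptic vesicles, Rab5 and Rab7 proteins on early and late endosomes, and Rab11 proteins on the recycling endosomes that return receptors and adhesion molecules to the surface. Ptbp2, the protein missing in the knockout, is a neuronal RNA-binding protein that represses alternative exons, so gene levels were compared first and then usage, the signal of a single probe set relative to its gene.

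Ptbp2 itself was at 6.24, 5.80, 5.54 and 6.22 (log2, median of its retained probe sets) on the 4 knockout arrays, and at 11.40, 11.15, 11.08 and 11.16 on the 4 wild type arrays (log2 fold change -5.25, SE 0.14, limma adjusted p = 1.7e-12). The knockout values lie below the filter of 6.84, so the size of the fall is not exact. The array medians of all probe sets ranged from 6.82 to 6.93. Of the genes that mark forebrain and neocortex, 7 of 9 were tested. Their mean log2 level was 10.08 ± 0.093 in knockout and 10.15 ± 0.082 in wild type cortex (SD, n = 4 each). In the knockout 4 had a higher and 3 a lower mean. Among the 3, Slc17a7 was at 8.71 to 9.13 on knockout and 9.24 to 9.85 on wild type arrays (log2 fold change -0.49, SE 0.13, limma adjusted p = 0.36). Markers of other cells and regions were not all alike in the groups. Of the tested striatal markers, 7 of 7 had a lower mean in the knockout (mean log2 level 8.66 to 8.96 on knockout and 9.17 to 9.40 on wild type arrays). Of 10 microglial markers 5 were tested, and 5 of 5 had a higher mean (8.21 to 8.47 on knockout and 7.87 to 8.16 on wild type arrays). Neuronal markers were at 11.27 to 11.45 on knockout and 11.39 to 11.67 on wild type arrays, with a lower mean in the knockout for 7 of 9. One of them, Snap25, a protein of synaptic vesicle fusion, was at 9.82 to 10.20 on knockout and 10.65 to 11.14 on wild type arrays (log2 fold change -0.84, SE 0.11, limma adjusted p = 0.0048). Oligodendrocyte lineage markers were at 8.27 to 8.41 on knockout and 8.39 to 8.65 on wild type arrays, with a lower mean in the knockout for 6 of 6. Choroid plexus markers lay at 7.32 in knockout 2, 8.41 to 8.88 on the other knockout arrays and 8.64 to 8.74 on wild type arrays. Of these markers, 8 of 8 had a lower mean in the knockout. Radial glia markers were at 9.71 to 9.86 on knockout and 9.60 to 9.88 on wild type arrays (4 higher, 3 lower in the knockout). Endothelial markers were at 8.97 to 9.10 on knockout and 8.84 to 9.09 on wild type arrays (6 higher, 1 lower). The 2 tested erythroid markers were at 7.74 to 8.20 on knockout and 7.65 to 8.15 on wild type arrays (1 higher, 1 lower). In whole tissue, fewer cells of a type and less RNA per cell cannot be told apart.

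In level, the Rab family was close to equal in the 2 groups. Of the 49 Rab genes tested, 0 passed the limma test at an adjusted p of 0.05 over all 12960 genes, where 0.116% of all genes did. An unadjusted p under 0.05 was seen for 2 of 49 (4.08%), against 6.49% of all genes tested: Rab24, higher in the knockout (2.7% of all genes), and Rab40b, lower (3.79% of all genes). The knockout and wild type arrays overlapped for each Rab gene, whereas 3.65% of all genes had no overlap. The means were higher in the knockout for 24 Rab genes and lower for 25 (51.0%, against 49.0% of all genes), with a median log2 fold change of -0.011 over the 49 and 0.0027 over all genes tested. The sign of the family median was not stable, at 0.031 with no signal filter and -0.045 without wild type 3 and knockout 3 together. Single fold changes ran from -0.26 to 0.25, and 38 of the 49 lay within 0.1 of 0. Every interval (95%, limma) except that of Rab1 lay within 0.5 log2 units of 0. A change of the size of that bound was thus outside the interval for 48 genes. Many intervals were narrower, such as -0.18 to 0.19 for Rab8b, and changes within a gene's interval could not be told from the spread. Those of Rab40b (-0.47 to -0.047) and Rab24 (0.017 to 0.48) did not hold 0, without adjustment for the number of genes.

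**Figure D1:**
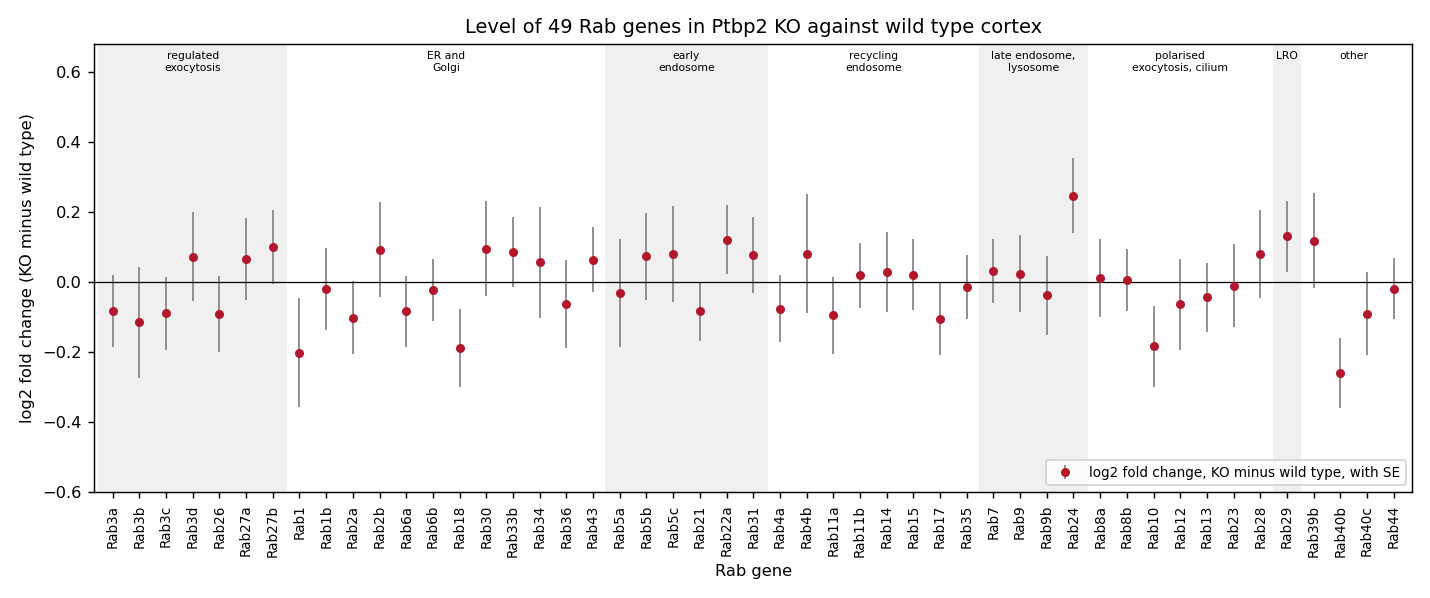
Log2 fold change of each of the 49 tested Rab genes (points, Ptbp2 KO minus wild type, n = 4 arrays each) with its standard error (bars), grouped by role along the horizontal axis (LRO, lysosome-related organelle). The points lie between -0.26 and 0.25 on both sides of 0, and none passed the test over all genes.

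The lowest p in level belonged to Rab40b, a Rab with a SOCS box that takes part in a ubiquitin ligase. Rab40b was at 7.71, 7.83, 7.90 and 7.85 on the knockout arrays, and at 7.89, 8.29, 8.14 and 8.01 on the wild type arrays (log2 levels, knockout or wild type 1 to 4). The groups overlapped by the one pair of knockout 3 and wild type 1, and the log2 fold change was -0.26 (SE 0.10, limma adjusted p = 0.72). Rab24, an atypical Rab linked to autophagy, was next. It was at 9.30, 9.10, 9.11 and 9.33 on the knockout arrays and at 9.08, 8.70, 8.94 and 9.13 on the wild type arrays. Knockout 1 and 4 lay above every wild type array and knockout 2 and 3 below wild type 4, with a log2 fold change of 0.25 (SE 0.11, limma adjusted p = 0.75).

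Among the Rabs of regulated exocytosis, 7 of 8 were tested and 3 were higher and 4 lower in the knockout, with a median log2 fold change of -0.083 and no call. Rab3a, the main Rab of synaptic vesicles, was at 10.77, 10.46, 10.53 and 10.69 in knockout and 10.77, 10.57, 10.85 and 10.59 in wild type cortex, so the groups overlapped, with knockout 2 and 3 below every wild type array and wild type 3 above every knockout array. Its log2 fold change was -0.083 (SE 0.10), with those of its close relatives at -0.11 (Rab3b, SE 0.16), -0.089 (Rab3c, SE 0.10) and 0.073 (Rab3d, SE 0.13). The granule Rabs, which act in the docking of secretory granules and melanosomes, had log2 fold changes of 0.067 (Rab27a, SE 0.12) and 0.10 (Rab27b, SE 0.11). The adjusted p of the 7 lay between 0.94 and 0.97 with limma. Rab3b had the widest wild type spread of the group, with an SD of 0.38 against 0.21 in knockout cortex. For Rab3a, Rab3b, Rab3c and Rab3d the sign turned under at least 1 other setting.

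Rabs of the endoplasmic reticulum and Golgi gave 5 higher and 7 lower of 12 tested (of 14), with a median log2 fold change of -0.022. Rab1, which controls transport between the endoplasmic reticulum and the Golgi, averaged 10.66 ± 0.26 in knockout and 10.87 ± 0.34 in wild type cortex (SD, n = 4 each). Its log2 fold change of -0.20 (SE 0.16, limma adjusted p = 0.90) was 0.076 with no signal filter. Rab18, found on the endoplasmic reticulum and lipid droplets, averaged 9.81 ± 0.22 in knockout and 9.99 ± 0.10 in wild type cortex (log2 fold change -0.19, SE 0.11, limma adjusted p = 0.83). Knockout 1 and 3, at 9.62 and 9.61, lay below every wild type array (9.92 to 10.15), and knockout 2 and 4, at 10.02 and 9.97, lay among them. Rab2a, of transport between Golgi and endoplasmic reticulum, had a log2 fold change of -0.10 (SE 0.10).

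Along the endocytic route, Rabs of the early endosome had a median log2 fold change of 0.075 (4 higher, 2 lower of 6 tested), those of the recycling endosome 0.0028 (4 higher, 4 lower of 8) and those of late endosomes and lysosomes 0.028 (3 higher, 1 lower of 4). Rab5a, Rab5b and Rab5c, which drive fusion of early endosomes, had log2 fold changes of -0.032 (SE 0.15), 0.073 (SE 0.13) and 0.080 (SE 0.14). Their spread in wild type cortex was wider than in knockout cortex: the SD was 0.21 in knockout and 0.37 in wild type for Rab5a, 0.089 in knockout and 0.29 in wild type for Rab5b, and 0.18 in knockout and 0.31 in wild type for Rab5c. Rab22a, of early and recycling endosomes, had a log2 fold change of 0.12 (SE 0.099), and Rab21, which follows integrins through endosomes, of -0.084 (SE 0.084). Rab7, the Rab of late endosomes and lysosomes, was at 11.76 ± 0.049 in knockout and 11.73 ± 0.12 in wild type cortex (log2 fold change 0.031, SE 0.091). Rab11a and Rab11b averaged 11.03 ± 0.13 and 11.51 ± 0.080 in knockout cortex, and 11.12 ± 0.20 and 11.49 ± 0.12 in wild type cortex (log2 fold changes -0.095, SE 0.11, and 0.019, SE 0.093). None of these passed the limma test, with adjusted p of 0.91 to 0.99, and signals of different genes are not compared because probes differ in affinity.

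Rabs of polarised exocytosis and the cilium gave 3 higher and 4 lower of 7 tested, with a median log2 fold change of -0.011. Rab10, an exocytic Rab that also serves membrane supply to the growing axon, averaged 11.09 ± 0.15 in knockout and 11.27 ± 0.22 in wild type cortex (SD, n = 4 each). Its log2 fold change was -0.18 (SE 0.12) at a limma adjusted p of 0.85. Rab13, which acts between the Golgi network, recycling endosomes and cell junctions, was at 8.08 ± 0.12 in knockout and 8.12 ± 0.13 in wild type cortex (log2 fold change -0.044, SE 0.098). Rab29, a Golgi and lysosome Rab linked to the kinase Lrrk2, was the one tested member of its group and had a log2 fold change of 0.13 (SE 0.10), and Rab17, an epithelial Rab of recycling endosomes, had -0.11 (SE 0.10). Rab17 was tested on exactly 4 retained probe sets, the fewest allowed.

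The other 10 Rab genes had too few retained probe sets for a test. Rab19, Rab20, Rab38 and Rab42 had 0, Rab25 had 1, Rab32 and Rab39 had 2, and Rab7b, Rab33a and Rab37 had 3. Over all probe sets without the filter, their mean log2 signals in knockout and wild type cortex differed by 0.039 (Rab19) to 0.25 (Rab39). All 10 were higher in the knockout, as were 44.6% of the 8491 genes with too few retained probe sets, and no test was made of these. Rab33a, a brain Rab of the Golgi, has 4 probe sets in all and was the one with high signal, at 10.05, 10.07, 10.02 and 10.02 in knockout cortex and 10.06, 10.02, 9.64 and 9.88 in wild type cortex. The wild type range of Rab33a was wider than the knockout range and held 3 of the 4 wild type values below every knockout value.

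The Rab genes stood high or low together on single arrays, most of all on wild type 1 and wild type 3. In wild type 1, 4 of the 49 genes lay below their own 8-array mean, and in wild type 3, 42 of 49 did, against 26.5% and 67.8% of all 12960 genes. The median deviation of the Rab genes was 0.15 in wild type 1 and -0.17 in wild type 3, against 0.092 and -0.083 for all genes. Wild type 1 held the highest of the 8 values for 25 Rab genes (32.3% of all genes) and wild type 3 the lowest for 22 (32.4% of all genes). On the knockout arrays the Rab medians ran from -0.073 (knockout 3) to 0.069 (knockout 1). Within groups, the median SD of a Rab gene was 0.13 in knockout and 0.19 in wild type cortex, against 0.12 in knockout and 0.15 in wild type cortex for all genes. The Rab median had the sign of the median of all genes on every array except wild type 2, at 0.017 for the Rab genes and -0.029 for all genes.

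**Figure D2:**
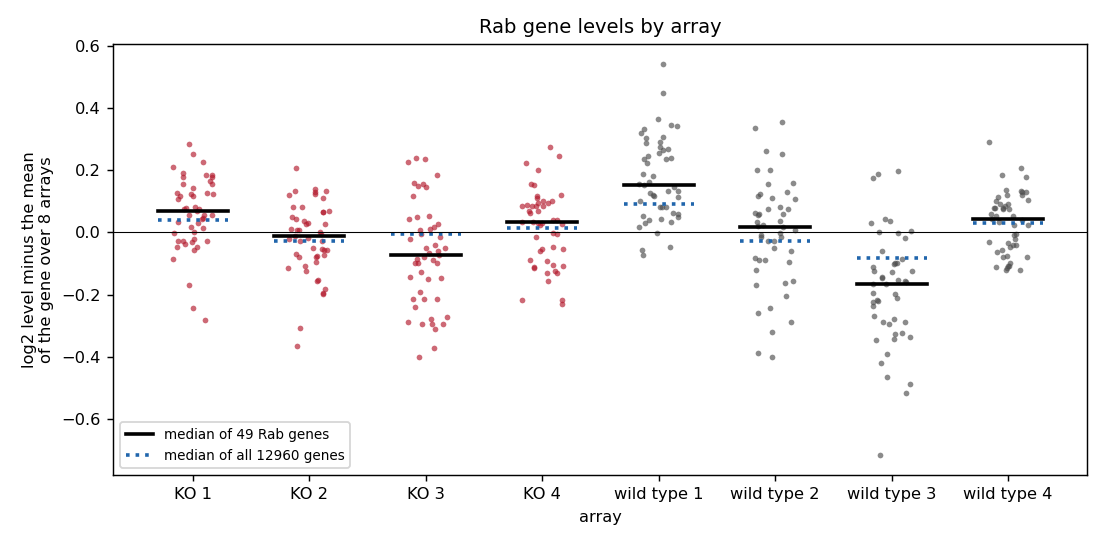
Level of each of the 49 tested Rab genes on each array, as the log2 difference from its own mean over the 8 arrays (points; Ptbp2 KO red, wild type grey), with the median of the Rab genes (black bars) and of all 12960 genes (dotted blue bars). Wild type 1 and wild type 3 hold the highest and lowest Rab medians, 0.15 and -0.17.

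Single probe sets were compared next, since a part of a transcript can differ where the gene median does not. Of 571 retained Rab probe sets, 0 passed the limma test in level over all 312767 probe sets, where 0.0921% of all did. At an unadjusted p under 0.05 there were 28 (4.90%), against 7.44% of all probe sets. Of the 28, 12 were higher in the knockout (2.1% of the Rab probe sets, against 4.84% of all) and 16 lower (2.8%, against 2.59% of all). The groups did not overlap for 18 (3.15%), against 4.24% of all probe sets, and 12 of these were lower in the knockout (2.1%, against 1.51% of all). The 4 with the smallest p belonged to only 2 genes, Rab11b (3 probe sets, lower) and Rab13 (1 probe set, higher).

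Relative to the rest of their gene, probe sets of Rab11b and Rab13 differed between knockout and wild type cortex. By diffSplice of limma, which tests whether the fold change of 1 probe set departs from that of its gene, 3 of 557 Rab probe sets (0.539%) passed at an adjusted p of 0.05 over all 195604, where 0.212% of all did. They were 1 raised (0.18%, against 0.0879% of all) and 2 lowered (0.359%, against 0.124% of all). By gene, 2 of 49 Rab genes passed by the Simes adjusted p (Rab11b, 0.0046, and Rab13, 0.029), which is 4.08% against 2.29% of all genes. Before adjustment, 28 of 557 (5.03%) had a diffSplice p under 0.05, against 4.57% of all probe sets, with 7 raised (1.26%, against 1.95% of all) and 21 lowered (3.77%, against 2.61% of all). The splicing index, which gives every probe set its own variance, called 0 of 557 Rab probe sets (0.00869% of all were called), with 35 at an unadjusted p under 0.05 (6.28%, against 5.27% of all). Of these, 21 were raised (3.77%, against 2.85% of all) and 14 lowered (2.51%, against 2.42% of all), and 20 Rab probe sets had no overlap relative to their gene (3.59%, against 2.92% of all). The calls in Rab11b and Rab13 thus rest on diffSplice alone. It pools the variance over all probe sets of a gene, so an SE given with a diffSplice deviation is not the probe set's own spread. Where each probe set lies in its gene was not used here, so a call cannot be assigned to an exon.

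**Figure D3:**
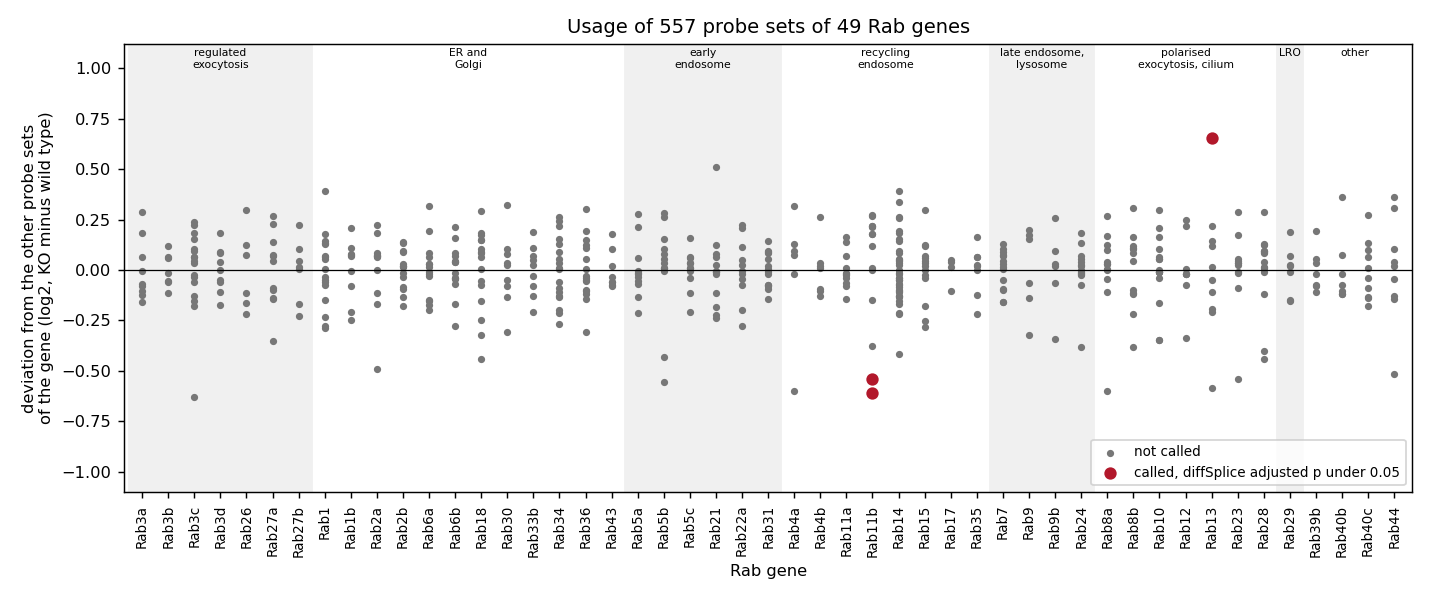
Deviation of each of 557 probe sets from the other probe sets of its Rab gene (log2, Ptbp2 KO minus wild type, limma diffSplice), by gene and role. The 3 called probe sets (large red points) are 2 of Rab11b at -0.61 and -0.54 and 1 of Rab13 at 0.65.

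Rab11b, a Rab of recycling endosomes, held 2 called probe sets, both lower in the knockout. Probe set 5400582 had log2 signals of 7.59, 7.45, 7.16 and 7.55 on the knockout arrays and 8.40, 7.79, 8.24 and 8.17 on the wild type arrays. All 4 knockout values lay below all 4 wild type values, with a deviation of -0.61 from the rest of the gene (SE 0.12, diffSplice adjusted p = 0.0040). Probe set 4521262 had log2 signals of 6.83, 6.89, 7.16 and 7.01 on the knockout arrays and 7.67, 7.63, 7.65 and 7.53 on the wild type arrays. Again no knockout value reached a wild type value, and the deviation was -0.54 (SE 0.12, diffSplice adjusted p = 0.019). Their own fold changes were -0.71 (SE 0.15, limma adjusted p = 0.21) and -0.65 (SE 0.11, limma adjusted p = 0.085), neither past the threshold in level.

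Another Rab11b probe set, 5441385, was named after its values were seen. It was at 8.02, 8.02, 8.03 and 8.21 on the knockout arrays and 8.68, 8.43, 8.64 and 8.51 on the wild type arrays. The groups did not overlap, but the deviation of -0.38 did not pass (SE 0.12, diffSplice adjusted p = 0.34). Relative to the gene median, 4780279 was also without overlap, with a splicing index of -0.30 (SE 0.088) and a diffSplice deviation of -0.15. The other 10 retained probe sets of Rab11b had a median of 11.71, 11.54, 11.76 and 11.60 on the knockout arrays and 11.76, 11.68, 11.53 and 11.61 on the wild type arrays, a difference of 0.0087. Of these 10, 9 had mean log2 signals between 11.03 and 12.52, whereas the 2 called probe sets were at 7.30 and 7.79. Those 9 differed by -0.15 to 0.11 between knockout and wild type cortex. The tenth, 4553366, at a mean of 7.23, differed by -0.13, and the one Rab11b probe set below the filter, 4721666, at a mean of 6.71, by 0.012.

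**Figure D4:**
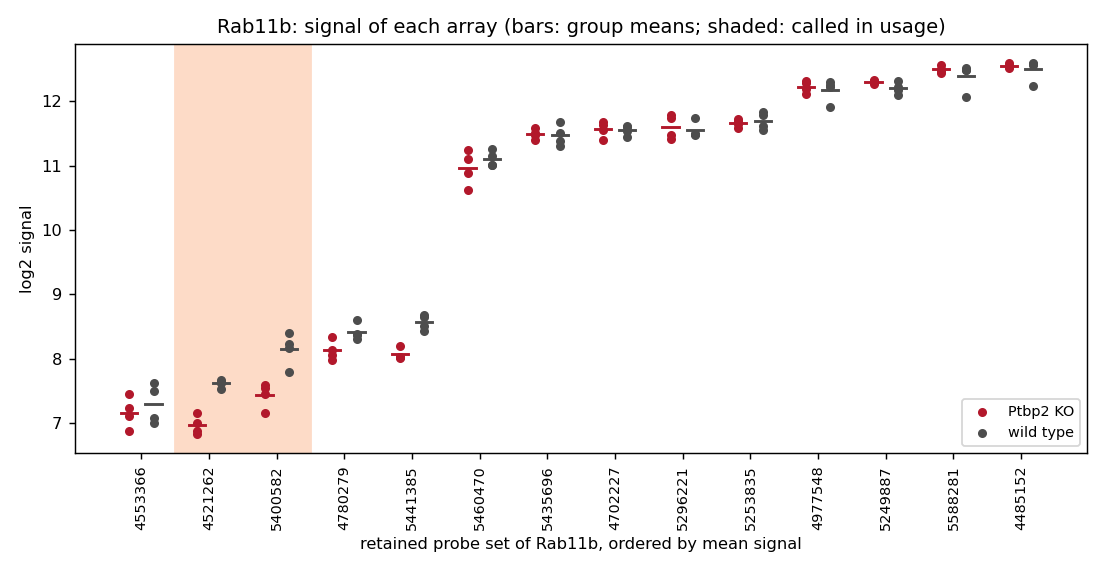
Log2 signal of each of the 14 retained probe sets of Rab11b on each array (points; Ptbp2 KO red on the left of each pair, wild type grey), with group means (bars) and the 2 called probe sets shaded. In probe sets 4521262, 5400582 and 5441385 all 4 knockout values lie below all 4 wild type values, and the 9 brightest probe sets overlap between the groups.

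The direction in Rab11b was the same on every fit with 1 array left out, from -0.72 to -0.50 for 5400582 and from -0.60 to -0.48 for 4521262. Probe set 5400582 lost its call only without knockout 3 (-0.50, diffSplice adjusted p = 0.12). Probe set 4521262 retained its call without knockout 3, knockout 4 or wild type 1. It lost the call without knockout 1 (-0.48, adjusted p = 0.33), knockout 2 (0.053), wild type 2 (0.055), wild type 3 (0.057) or wild type 4 (0.063), all with diffSplice. The paralog Rab11a, which shares the recycling endosome with Rab11b, had 11 retained probe sets with deviations from -0.14 to 0.17, of which 0 reached an unadjusted diffSplice p of 0.05. The Rab11a probe sets had mean log2 signals of 8.85 to 11.97, so none was as dim as the called ones of Rab11b (7.30 and 7.79). The difference between the 2 paralogs was not tested.

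Rab13 held 1 called probe set, higher in the knockout. Probe set 4532957 had log2 signals of 8.42, 7.94, 8.29 and 8.11 on the knockout arrays and 7.55, 7.65, 7.69 and 7.62 on the wild type arrays. Every knockout value lay above every wild type value, with a deviation of 0.65 from the other 9 retained probe sets (SE 0.15, diffSplice adjusted p = 0.030). Those 9 had a median of 8.06 ± 0.11 in knockout and 8.20 ± 0.045 in wild type cortex (SD, n = 4 each). The level of the probe set itself differed by 0.56 (SE 0.13, limma adjusted p = 0.24). A second Rab13 probe set, 4743459, named after its values were seen, went the other way.

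That probe set was at 7.19, 7.93, 7.16 and 6.94 on the knockout arrays and 7.86, 8.14, 7.62 and 7.79 on the wild type arrays. Knockout 2 lay among the wild type values and the other 3 below them, and the deviation of -0.58 did not pass (SE 0.15, diffSplice adjusted p = 0.085). The Rab13 call of 4532957 was less steady than that of Rab11b 5400582 over fits with 1 array left out. It was retained without knockout 2 (adjusted p = 0.0041) or wild type 3 (0.025) and lost without each of the other 6 arrays (adjusted p = 0.052 to 0.42), with deviations between 0.57 and 0.75, all from diffSplice. It was also lost with no signal filter (0.62, diffSplice adjusted p = 0.13). The striatal and microglial marker means and Snap25 also did not overlap between the groups. The neuronal marker means did overlap, with 2 of 9 neuronal markers higher in the knockout. Features without overlap split the arrays alike whatever their relation. A part of these markers in the Rab11b and Rab13 differences was not tested.

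**Figure D5:**
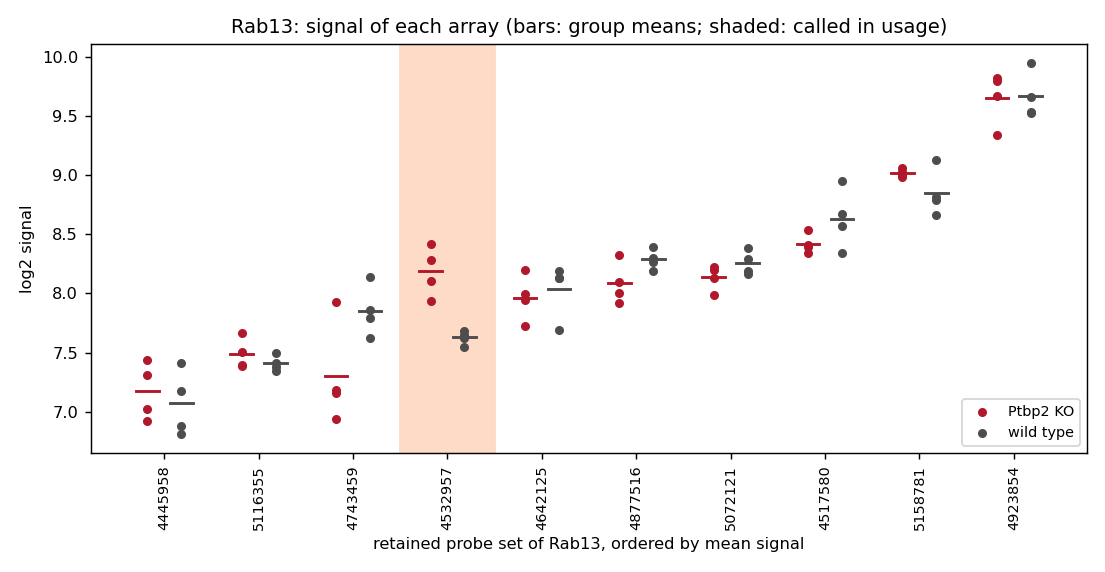
Log2 signal of each of the 10 retained probe sets of Rab13 on each array (points; Ptbp2 KO red on the left of each pair, wild type grey), with group means (bars) and the called probe set shaded. In 4532957 the knockout values (7.94 to 8.42) lie above the wild type values (7.55 to 7.69), and the gene's other probe sets lie on both sides.

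Just outside the threshold was Rab3c, a vesicle Rab of neurons. Its probe set 4925731 was at 9.82, 9.21, 8.82 and 9.30 on the knockout arrays and 10.68, 9.42, 10.27 and 9.76 on the wild type arrays. Knockout 1 was higher than wild type 2 and 4, and the deviation was -0.63 (SE 0.16 from the variance pooled over the gene, diffSplice adjusted p = 0.055). The remaining 16 Rab3c probe sets deviated by -0.18 to 0.24. The next genes by p were Rab8a, of exocytosis and the primary cilium (-0.60, SE 0.17), Rab21 (0.51, SE 0.15), Rab4a, of rapid recycling (-0.60, SE 0.19), Rab23, a Rab of Hedgehog signalling (-0.54, SE 0.19), Rab18 (-0.44), Rab2a (-0.49) and Rab5b (-0.55). Their diffSplice adjusted p lay between 0.15 and 0.64, so none passed. Without knockout 3 the deviations were -0.25 (Rab23), -0.25 (Rab18), -0.29 (Rab2a) and -0.34 (Rab5b), and without wild type 1 they were -0.22 (Rab2a), -0.35 (Rab5b) and -0.39 (Rab4a). Of these genes, only the Rab21 probe set showed no overlap relative to its gene.

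The proteins that load, switch and read Rabs, and Rab-like proteins, were compared from 5 lists drawn from general knowledge. The lists held 165 symbols, some of them older symbols of a listed gene, and 153 genes were tested. In level 0 of 153 passed the limma test, with 8 at an unadjusted p under 0.05 (5.23%, against 6.49% of all genes tested), 2 higher and 6 lower in the knockout. The median log2 fold change was -0.0035, with 76 higher and 77 lower. The genes named here had the 2 smallest p of their list. Among the carriers that prenylate and recycle Rabs (5 higher, 3 lower of 8) they were Chm, the Rab escort protein (-0.32, SE 0.13, limma adjusted p = 0.75), at -0.19 without knockout 3, and Rabggta, a subunit of the geranylgeranyl transferase (0.14). Among effectors (22 higher, 36 lower of 58) they were Hook3, a dynein adaptor (-0.32, SE 0.093, limma adjusted p = 0.42), and Doc2b, a calcium sensor of exocytosis (-0.25). Among exchange factors (24 higher, 19 lower of 43) they were Trappc5, a subunit of the TRAPP tethering complex (0.32, SE 0.098, limma adjusted p = 0.48), and Ric1, part of an exchange factor for Rab6 (-0.34). The GTPase activators gave 21 higher and 17 lower of 38, with the smallest p for Sgsm3 (0.18) and Tbc1d10b (0.16). The Rab-like proteins, a list that also held Ran, gave 4 higher and 2 lower of 6. Rabl2 (0.29) and Ift27 (0.24), both of the cilium, had the smallest p. Without wild type 3, Sgsm3 was at 0.11 and Ift27 at 0.12, and with the mean of the probe sets Trappc5 was at 0.19, Tbc1d10b at 0.066 and Rabl2 at 0.048.

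In usage, 5 of 3045 probe sets of these genes (0.164%) passed diffSplice, against 0.212% of all probe sets. They lay in Tbc1d8, a TBC-domain protein (-0.87, SE 0.15), Madd, the exchange factor of Rab3 (0.82, SE 0.15), Ankrd27, an exchange factor of Rab21 (-0.75, SE 0.15), Mical3, an enzyme that binds Rab8 on secretory vesicles (0.70, SE 0.16), and Dennd4c, an exchange factor of Rab10 (-0.68, SE 0.16). Their diffSplice adjusted p lay between 2.4e-04 and 0.025. By gene, 4 of the 153 passed by the Simes adjusted p, against 2.29% of all genes, and Dennd4c did not (Simes adjusted p = 0.060). The Madd probe set 4803573 was at 7.46, 7.22, 7.80 and 8.02 on the knockout arrays and 6.48, 6.51, 7.10 and 7.03 on the wild type arrays. All knockout values lay above all wild type values, but the wild type mean of 6.78 is below the filter, which leaves the size inexact. The Mical3 probe set 4717255 was at 9.72, 9.77, 9.95 and 9.73 on the knockout arrays and 9.07, 9.13, 9.08 and 9.15 on the wild type arrays, without overlap, and of these 5 it was the one also called in level (0.68, limma adjusted p = 0.045). The Tbc1d8 probe set 5489697 was at 6.62, 6.13, 6.15 and 7.10 on the knockout arrays, with a mean below the filter, and at 7.58, 6.89, 7.15 and 7.61 on the wild type arrays. Knockout 4 lay above wild type 2, and the probe sets of Ankrd27 and Dennd4c overlapped between the groups as well. That of Dennd4c also had a knockout mean below the filter, 6.63, so its size is not exact either. The splicing index called 0 of the 5 (adjusted p = 0.51 to 0.92). Madd and Tbc1d8 passed diffSplice whichever single array was left out, and the other 3 lost their calls without knockout 3 (adjusted p = 0.12 to 1.0), Mical3 also without wild type 4 (0.081) and Dennd4c also without knockout 1 (0.17), wild type 2 (0.085) or wild type 4 (0.51).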

How the data were processed

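RNA from 8 embryonic cortices was measured on exon arrays. The authors deposited 1 log2 signal for every probe set and array. The submitters' processing notes name RMA, Affymetrix Expression Console and mm9, with software versions not given in the sources used here. That method corrects background, sets equal distributions by quantile normalization and compresses low signals. There is no read depth on arrays, and each group held 4 arrays.

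Symbols came from the platform annotation (303629 probe sets with 1 symbol, 5892 with several, 316013 with none) and were updated through RefSeq gene names (GRCm38.p6): of 21634 symbols, 17657 were current and 3919 were updated. Probe sets with a mean at or above 6.84 (312767) were retained, and a gene's value was the median of 4 or more of them. Levels were fitted with lmFit and eBayes of limma 3.58.1 (R 4.3.3), usage with diffSplice without Ptbp2, and a splicing index (probe set minus gene median) served as an alternative. All p-values were adjusted by Benjamini-Hochberg over the whole table at 0.05. The fits were tested on simulated data with independent noise and a common spread for all probe sets of a gene. Such data do not show how diffSplice fares where spreads differ within a gene.

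Members, role and pathway lists were chosen with earlier results of these data known. Named were called genes and probe sets, the 10 smallest p in level and in usage (1 probe set per gene), the Rab3, Rab5, Rab7, Rab11 and Rab27 genes, and the first 2 of each pathway list. Samples were grouped by their titles as biological replicates, and no 2 arrays were identical. Alternatives were other filters, normalizations, array weights, trend and robust eBayes, the mean, other minimum numbers of probe sets, the replicate number as a block and each array left out. Leaving out wild type 3 and knockout 3 together was chosen after the data were seen.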

Additional observations from a re-analysis of the deposited data

Results flagged for a closer look

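In 4 of 68 groups of 4 arrays checked among the named Rab results, 1 array stood far from the other 3 (Dixon's criterion), and chance gives about 1 in 20. Rab27b was at 7.63 in wild type 1, against 7.21 to 7.26 on the other wild type arrays. Rab7 was at 11.55 in wild type 3, against 11.78 to 11.81 on the others. Relative to its gene, Rab3c probe set 4925731 was at -0.74 in knockout 1, against -1.42 to -1.31 on the other knockout arrays, and Rab5b probe set 5277978 at -0.71 in wild type 1, against -1.49 to -1.38 on the other wild type arrays.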

How the results depend on the processing

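The count of Rab genes changed in level was 0 under all 18 alternatives, and Ptbp2 was lower in each (-5.35 to -4.73). The median log2 fold change of the Rab genes stayed within -0.064 and 0.053. Rab probe sets changed in level numbered 1 under array weights (Rab11b 4521262, limma adjusted p = 0.036) and 0 under the other alternatives run. Rab probe sets changed in usage numbered 9 in 7 genes under array weights, 1 in 1 gene without wild type 3 and knockout 3 together, and 0 in 0 genes with the splicing index. They numbered 0 in 0 genes with the filter at the 75th percentile, which removes all 3 called probe sets. With 1 array left out the numbers ran from 1 to 4 probe sets and from 1 to 3 genes. They fell to 1 probe set and 1 gene without knockout 3 or wild type 4, and to 1 gene without wild type 1. Without wild type 3 and knockout 3 the remaining call was in Rab11b 4521262, and 5400582 was at -0.43 (diffSplice adjusted p = 0.23).

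No named Rab gene was called in level under any alternative, and for genes near 0 the sign turned. With no filter, Rab1 was at 0.076, Rab13 at 0.065, Rab17 at 0.015, Rab22a at -0.00017 and Rab3a at 0.11. With the mean of the probe sets, Rab11a was at 0.013, Rab11b at -0.15, Rab18 at 0.047, Rab27b at -0.00098, Rab3a at 0.023, Rab5a at 0.018, Rab5b at -0.060 and Rab7 at -0.030. At the 75th percentile, Rab11b was at -0.0098, Rab18 at 0.00043, Rab3b at 0.046 and Rab7 at -0.026. Under array weights, Rab3a was at 0.022, Rab3c at 0.031, Rab3d at -0.044, Rab5b at -0.028 and Rab7 at -0.015. Without wild type 3 and knockout 3, Rab11b was at -0.030, Rab3d at -0.063, Rab5b at -0.028 and Rab7 at -0.040. With 1 array left out, Rab11b ran from -0.019 to 0.074, Rab3d from -0.023 to 0.16, Rab5a from -0.18 to 0.11, Rab5b from -0.070 to 0.14, Rab5c from -0.019 to 0.19 and Rab7 from -0.028 to 0.056. The cause of these changes was not tested.

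The labels number the cortex samples 1 to 4 in each group without stating a pairing. Arrays of the same number correlated in their deviations by 0.25, -0.0039, 0.033 and 0.17. The best match of the knockout array was the same number for 1 and 4 and another number for 2 and 3. With so few arrays, this cannot tell whether the numbers pair the samples. Adding a replicate block to the fit gave 0 Rab genes in level, 4 probe sets and 2 genes in usage, with Rab3c 4925731 added (diffSplice adjusted p = 0.049).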
